A study of Mus musculus with 10 samples.

Results

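Glo1 encodes glyoxalase 1, and the 9 genes described here are Glo1, its pseudogene copy Glo1-ps, 4 further enzymes that clear methylglyoxal (Hagh, Park7, Akr1b3 and Akr1a1) and 3 neighbours of Glo1 (Btbd9, Dnah8 and Gm10503). They were looked up by symbol among the 78298 genes of the authors' count table, and all 9 were found and passed the filter on low counts. Glo1, Glo1-ps, Btbd9, Dnah8 and Gm10503 were chosen by their levels in these same libraries, which earlier results showed to be higher in knockout hearts, so their differences are described without a test. The other 4 were picked for their function.

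Hearts of female mice on a C57BL/6J background were profiled by bulk RNA sequencing 72 h after 1 injection of the anthracycline doxorubicin at 30 mg/kg into the peritoneum. One group of 5 was wild type. The other 5 came from mice with a germline deletion of p38δ, one of the p38 kinases that respond to stress, whose gene is Mapk13. Every heart had received doxorubicin, so the drug's own effect was not measured. The sources used here give no ages and do not say that each library is a separate animal. The p-values therefore set a group difference against the spread between libraries, which may not be that between animals. The titles of the groups follow different naming schemes, and a batch that goes with them cannot be told apart from genotype. Nor can other inherited differences between the mouse lines, near Mapk13 or elsewhere, be told apart from the loss of p38δ. The strain origin of the knockout line cannot be read from gene counts.

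Methylglyoxal is a reactive by-product of glycolysis that forms mainly from triose phosphates and modifies arginine and lysine residues of proteins. Glyoxalase 1 converts its adduct with glutathione to S-lactoylglutathione, and glyoxalase 2, encoded by Hagh, hydrolyses that product to D-lactate and returns the glutathione. Aldo-keto reductases and the protein DJ-1 are further routes against dicarbonyls and their early protein adducts. In laboratory mice Glo1 is known to lie in a segmental duplication that some inbred strains carry and others, C57BL/6J among them, do not, and that also takes in Dnah8 and part of Btbd9. Genomic copy number was not measured here.

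Library totals ranged from 21403189 to 40627138 counts. Summed markers of ventricular heart muscle stood at 17516 to 54020 CPM (counts scaled to library size) in the 10 libraries. Wild-type library 1 stood apart, with 855 CPM of lung and airway markers (75.6 CPM in wild-type library 3 and under 1 CPM in the other 8) and 77.9 CPM of motile cilia markers. Atrial muscle markers summed to 1159 CPM in it, 257 CPM in wild-type library 2 and 32.5 to 126 CPM in the other 8. Knockout library 4 had the highest heart muscle sum. Mapk13 had 292, 5, 2, 1 and 4 counts in wild-type libraries 1 to 5 and 12, 10, 10, 15 and 9 in the knockout libraries, so it does not check the labels. It starts 1.86 Mb from Glo1 on chromosome 17.

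The promoter of Glo1 is shown because Glo1 gave the largest amount of transcript among the members that were higher. The RefSeq sequence from 250 bases before to 50 after the start matched GRCm39 once, at chr17:30831584-30831883 on the minus strand, inside the GENCODE gene, whose longest transcripts start further upstream. GC boxes are in capitals.
Glo1 promoter: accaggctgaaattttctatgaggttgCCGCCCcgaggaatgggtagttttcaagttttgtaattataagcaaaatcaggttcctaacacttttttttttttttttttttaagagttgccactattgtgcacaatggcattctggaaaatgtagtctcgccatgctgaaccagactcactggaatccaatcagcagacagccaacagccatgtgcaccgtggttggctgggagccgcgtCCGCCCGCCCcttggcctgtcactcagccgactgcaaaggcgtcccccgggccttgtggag
The GC box letters GGGCGG were matched 3 times, each on the opposite strand, and 2 of the matches overlap. Of 32851 RefSeq promoters (GRCm38.p6) of 300 bases, 35.7% hold this motif on either strand. The antioxidant response element core TGACNNNGC, the recognition motif of the transcription factor Nrf2, was not found in this window, and 12.4% of the promoters hold it. RefSeq promoters were matched for 5 of the 9 members.

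Glo1 (ENSMUSG00000024026, chromosome 17, 30803910 to 30845845, minus strand, GRCm39) was about 3 times as abundant in knockout hearts. Its level was 66.6, 75.8, 79.3, 88.2 and 79.0 CPM in wild-type libraries 1 to 5. In knockout libraries 1 to 5 it was 245, 215, 232, 245 and 219 CPM. The groups did not overlap, and the lowest knockout library was far above the highest wild-type one. All 9 members were tested in the fit, which called 0.24% of 16700 genes higher and 0.114% lower; the groups did not overlap, upward in 0.88% and downward in 0.898%. Since these same values chose Glo1, nothing is read from that. The means were 77.8 ± 7.78 and 231 ± 13.9 CPM (SD, n = 5 each), a ratio of 2.97 and a fitted log2 fold change of 1.57. Without wild-type library 1 and knockout library 4 the log2 fold change was 1.50. In whole hearts, more Glo1 transcript per cell and a larger share of cells that express it cannot be told apart.

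Glo1-ps (ENSMUSG00000075391), annotated as a processed pseudogene of Glo1 on chromosome 2, was also higher in every knockout library. A processed pseudogene arises from a spliced transcript and can share reads with its parent gene. No source used here gives the read length, and counts for the copy are uncertain for these reasons. It had 52, 49, 20, 24 and 38 counts in wild-type libraries 1 to 5 and 294, 311, 253, 388 and 342 in knockout libraries 1 to 5. As CPM these were 0.622 to 1.25 and 10.2 to 12.6, with means of 1.03 ± 0.249 and 11.5 ± 0.917 (SD, n = 5 each), a ratio of 11.1. The pseudogene thus differed by a larger ratio than Glo1 itself. Of the counts on Glo1 and Glo1-ps together, the pseudogene took 0.778% to 1.69% in wild-type and 4.46% to 4.93% in knockout libraries. Wild-type library 1 gave 1.69% with a 95% exact binomial interval of 1.26% to 2.21%, and knockout library 5 gave 4.46% with 4.01% to 4.95%, where the intervals cover counting error only. These shares come from the same counts that chose both genes, so they are a description, and the spread between libraries is that of the ranges given. With the pseudogene's counts added to Glo1, the sum was 78.8 ± 7.75 CPM in wild-type and 243 ± 14.7 CPM in knockout hearts, a ratio of 3.08. Whether reads of 1 gene were counted on the other was not tested.

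**Figure D1:**
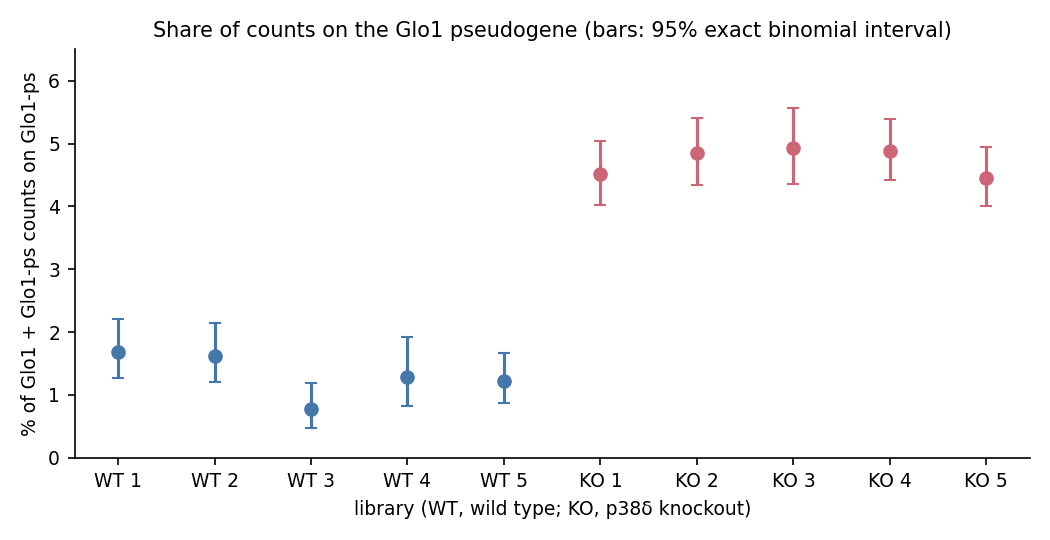
Percentage of the counts on Glo1 and Glo1-ps together that fell on Glo1-ps (vertical axis), in each of 10 libraries (horizontal axis, wild type in blue and p38δ knockout in red); bars are 95% exact binomial intervals. The 5 wild-type libraries lie at 0.778% to 1.69% and the 5 knockout libraries at 4.46% to 4.93%.

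Btbd9 (ENSMUSG00000062202, chromosome 17, 30434498 to 30795517, minus strand) lies next to the 3′ end of Glo1. It encodes a BTB domain protein that binds the ubiquitin ligase scaffold cullin 3, and its human counterpart is associated with restless legs syndrome. It stood at 12.4, 14.8, 14.1, 14.3 and 12.6 CPM in wild-type libraries 1 to 5 and at 28.4, 25.0, 28.2, 26.2 and 24.3 CPM in knockout libraries 1 to 5. All 5 knockout libraries were above all 5 wild-type ones. The means were 13.6 ± 1.08 and 26.4 ± 1.85 CPM (SD, n = 5 each), a ratio of 1.94, which is lower than that of Glo1. Gene counts do not resolve exons, so a difference in part of Btbd9 cannot be told from 1 along its whole length.

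Dnah8 (ENSMUSG00000033826, chromosome 17, 30843328 to 31096339, plus strand) begins inside the annotated Glo1 gene, on the opposite strand. It encodes a dynein heavy chain of axonemes, the core of cilia and of sperm tails. Its counts were 45, 9, 13, 6 and 15 in wild-type libraries 1 to 5 and 54, 107, 60, 90 and 84 in knockout libraries 1 to 5. As levels these were 0.988, 0.230, 0.404, 0.289 and 0.386 CPM against 2.12, 3.77, 2.86, 2.92 and 2.52 CPM. The groups did not overlap, although the transcript was scarce in both. The means were 0.459 ± 0.304 and 2.84 ± 0.609 CPM (SD, n = 5 each), with a log2 fold change of 2.58.

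Wild-type library 1, the highest of its group for Dnah8, also held 77.9 CPM of the 9 summed motile cilia markers, against 1.81 to 8.08 CPM in the other 9 libraries. Without it the log2 fold change of Dnah8 was 3.10. The cilia markers summed to 1.81 to 2.54 CPM in the knockout libraries, to 1.99 to 2.02 CPM in wild-type libraries 2, 4 and 5 and to 8.08 CPM in wild-type library 3. None of those 9 markers was at 0 in all 5 knockout libraries, and their part in the Dnah8 difference was not tested. Without strand information in the sources, reads of Dnah8 and Glo1 between 30843328 and 30845845 cannot be assigned with certainty.

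Gm10503 (ENSMUSG00000117786, chromosome 17, 31139312 to 31182301, minus strand) is a long noncoding RNA with no role given in the annotation. It had 1, 0, 0, 0 and 0 counts in wild-type libraries 1 to 5 and 360, 350, 260, 310 and 436 in knockout libraries 1 to 5. It passed the filter on low counts through the knockout libraries alone. The transcript was nearly absent from wild-type hearts and present in every knockout heart, at 12.4 ± 1.50 CPM (SD, n = 5). Scaled for depth, the wild-type level was 0.0459% of the knockout level (95% exact Poisson bounds for counting error alone, 0.00116% and 0.256%). It overlaps Glp1r, the gene of the glucagon-like peptide 1 receptor on the opposite strand, which had 48 counts over the wild-type and 11 over the knockout libraries, 40 of them in wild-type library 1 and 8 in wild-type library 2, which are also the libraries with the most atrial markers. The part of those markers in its counts was not tested.

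**Figure D2:**
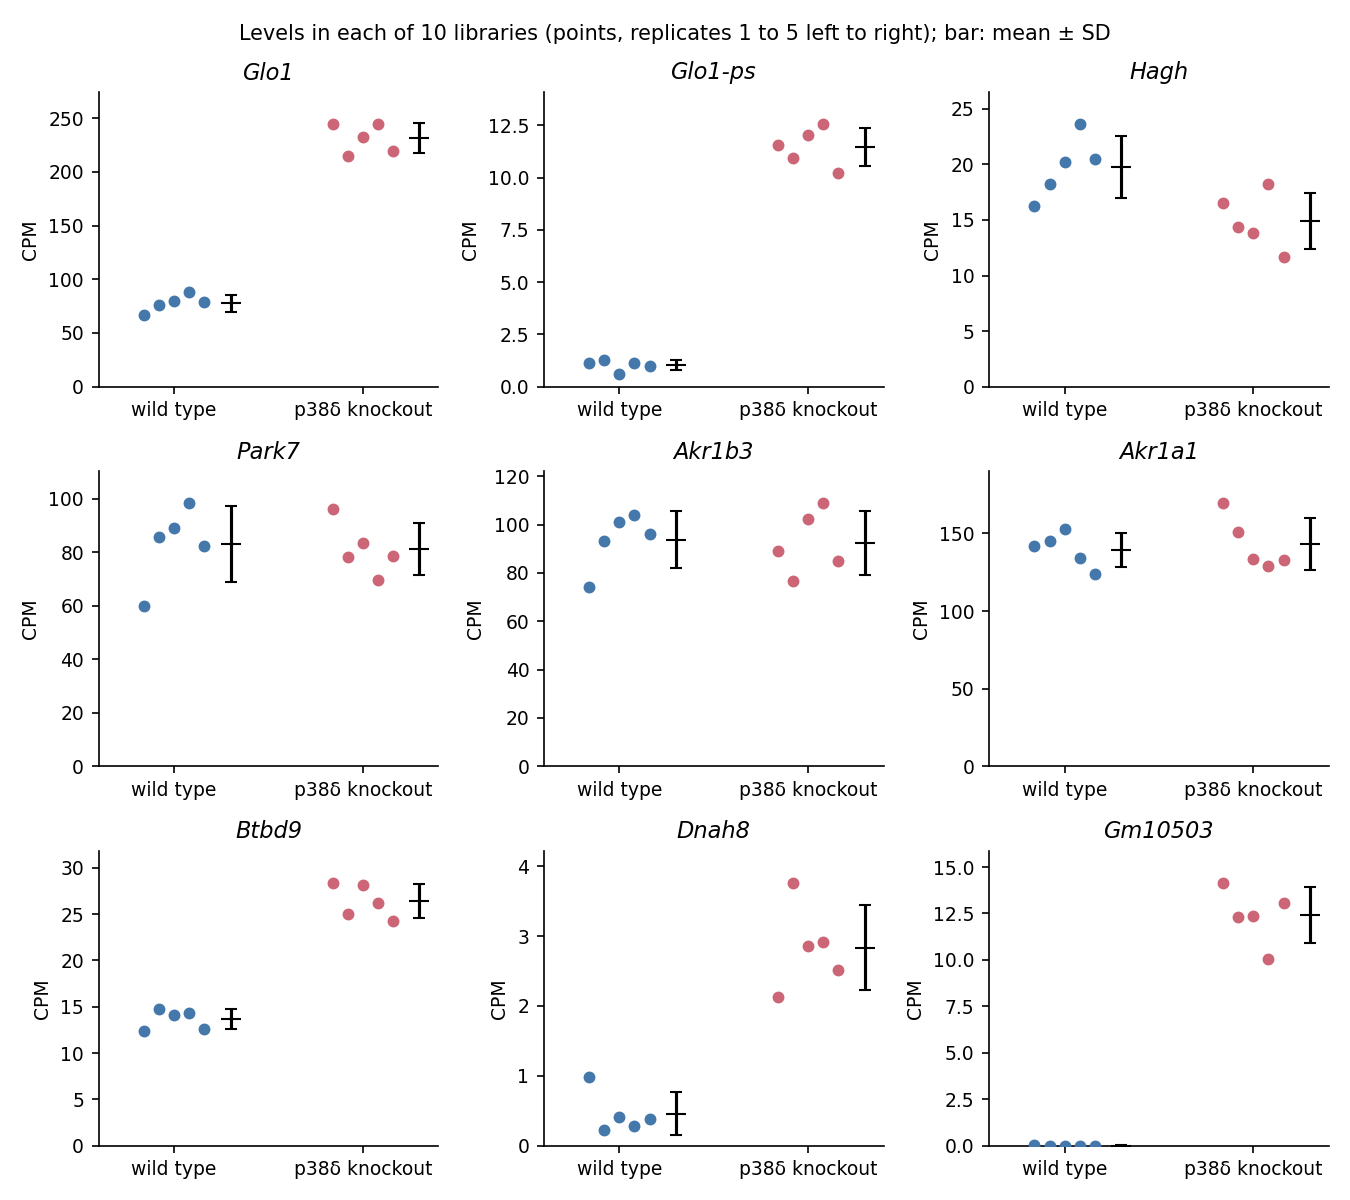
Level of each of the 9 genes in CPM (vertical axes from 0) in 5 wild-type and 5 p38δ knockout libraries; points are libraries, replicates 1 to 5 from left to right, and black bars are means ± SD. Glo1, Glo1-ps, Btbd9, Dnah8 and Gm10503 do not overlap between the groups, and Hagh, Park7, Akr1b3 and Akr1a1 do.

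The genes called around Glo1 formed a run that ended before Zfand3 on one side and Abcg1 on the other, within the 1 Mb examined. Calls on chromosome 17 went beyond this window, and 45 of the 59 genes called in all lie there, 5.44% of its 827 tested genes. Of 80 annotated genes that start within 1 Mb of Glo1, 61 had at least 1 count and 19 were tested. The quasi-likelihood test of edgeR called 6 of the 19 (Benjamini-Hochberg adjusted p threshold of 0.05), all higher, where 0.353% of all tested genes were called in either direction (0.718% with DESeq2). Since 4 of the 6 were members picked for being higher, Gm10503 passing the filter only through knockout libraries, that count is a description. The remaining 2 were the noncoding RNA Gm50240 and the unclassified transcript Gm50244. Gm50240, which overlaps Btbd9 and lies between it and Glo1, stood at 3.42 to 4.68 CPM in wild-type and 9.44 to 15.3 CPM in knockout libraries. Its adjusted p by edgeR was 1.69e-04, with a log2 fold change of 1.59 ± 0.15 SE. Of its bases, 254 match a Btbd9 transcript on the opposite strand, and reads there cannot be told apart without strand information. Its p is thus not fully separate from the choice of Btbd9. Gm50244 lies inside Glo1 on the other strand and stood at 0.637 to 1.15 and 1.95 to 2.75 CPM. Its adjusted p by edgeR was 0.0187, with a log2 fold change of 1.31 ± 0.21 SE. Its 418 annotated bases all match a Glo1 transcript on the opposite strand, so without strand information its reads and those of Glo1 cannot be told apart, and its p is not separate from the choice of Glo1. Its call was lost when any 1 of wild-type libraries 2, 3 and 5 or knockout libraries 1, 2 and 4 was left out (adjusted p = 0.0524 to 0.0816).

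The nearest tested gene beyond Btbd9 was Zfand3, a zinc finger gene. Zfand3 was at 53.9 ± 5.11 CPM in wild-type and 54.9 ± 2.89 CPM in knockout hearts, a log2 fold change of 0.03 ± 0.08 SE with an adjusted p by edgeR of 0.959. Beyond Gm10503 it was Abcg1, a sterol exporter gene, at 4.35 ± 2.97 and 4.39 ± 1.19 CPM, a log2 fold change of 0.00 ± 0.37 SE with an adjusted p by edgeR of 0.999. Wild-type library 1 held the highest Abcg1 level, 9.62 CPM, and the value near 0 depended on it. Without that library the log2 fold change of Abcg1 was 0.54 ± 0.20 SE (adjusted p = 0.651 by edgeR), and that of Zfand3 was -0.03. Neither flanking gene passed the test, and the groups overlapped in both. Further out than Zfand3, Mdga1 was at 1.06 to 1.78 CPM in wild-type and 1.14 to 6.00 CPM in knockout libraries, with knockout library 4 highest. Its log2 fold change of 1.01 did not pass (adjusted p = 0.674 by edgeR) and was 0.50 without knockout library 4. It was named after its values were seen.

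Between the outer ends of Btbd9 and Gm10503, a span of 748 kb, 25 genes are annotated and 11 had at least 10 counts in all. Group means were higher in knockout hearts for 10 of those 11, the exception being Glp1r. Of all 16700 tested genes, 7790 had a log2 fold change above 0. Btbd9, Glo1, Dnah8 and Gm10503 were picked for being higher, and Btbd9 and Gm10503 set the ends of the span. Reads of Gm50244 cannot be told apart from those of Glo1, nor those of Gm50240 from Btbd9 where the 2 overlap. Gm9874 had 12 counts in each group, and Gm63450 had 3 in wild-type and 7 in knockout libraries. The 10 of 11 is therefore a description. The ratios were unequal, at 1.94 for Btbd9, 2.47 for Gm50244, 2.97 for Glo1, 3.03 for Gm50240 and 6.17 for Dnah8. Below the filter, the noncoding RNA Gm50242, just beyond the 3′ end of Dnah8, had 1 count over the wild-type and 54 over the knockout libraries. The noncoding RNA Gm50252 is annotated as 1 transcript whose exons match 247 bases of Gm10503 and 1184 bases of Btbd9. It had no count in wild-type hearts and 6 each in knockout libraries 1 and 5. Gm50242, Gm50252, Gm9874, Gm63450 and Glp1r were named after their values were seen.

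**Figure D3:**
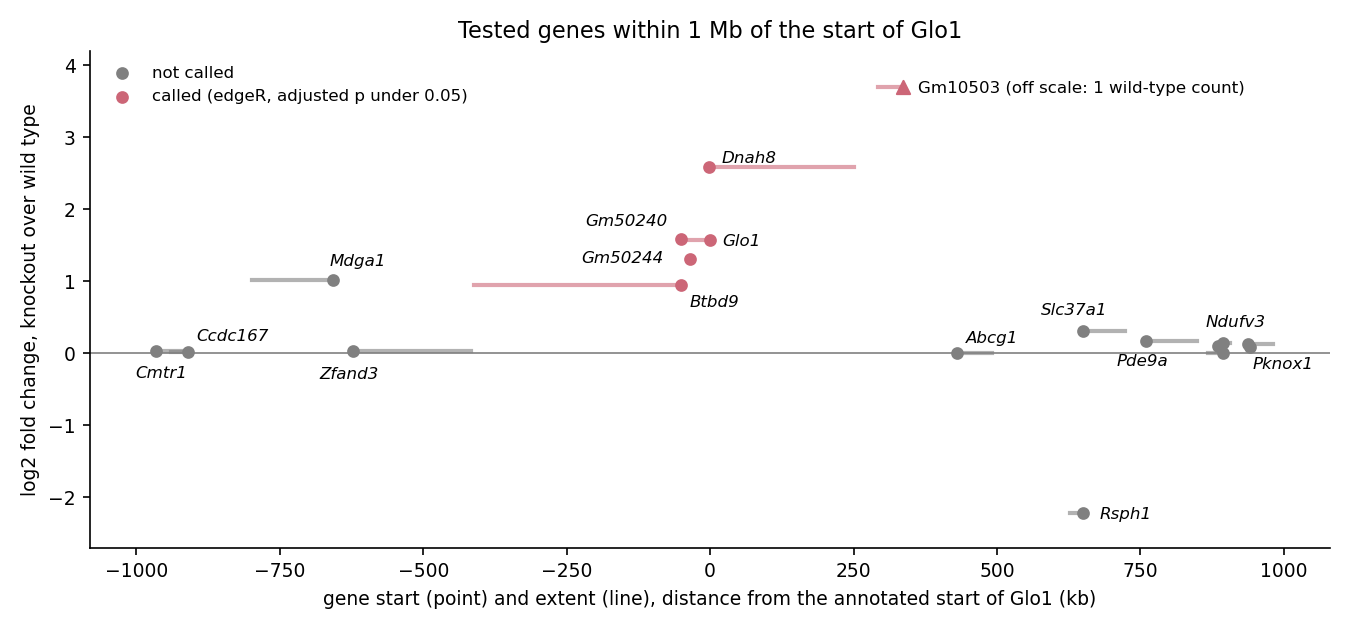
Fitted log2 fold change, knockout over wild type (vertical axis), of 19 tested genes by distance in kb from the annotated start of Glo1 (horizontal axis); points mark gene starts, lines gene bodies, and red the 6 genes called by edgeR. The called genes run from Btbd9 to Gm10503, which is drawn as a triangle off the scale, and Zfand3 and Abcg1 on either side lie near 0 (Abcg1 at 0.54 without wild-type library 1).

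The remaining enzymes of methylglyoxal clearance did not differ the way Glo1 did. Hagh (ENSMUSG00000024158, chromosome 17, 25059117 to 25084125), whose product acts after glyoxalase 1, was lower on average in knockout hearts. Its level was 16.2, 18.2, 20.2, 23.7 and 20.5 CPM in wild-type libraries 1 to 5 and 16.5, 14.3, 13.8, 18.3 and 11.7 CPM in knockout libraries 1 to 5. The groups overlapped, with wild-type libraries 1 and 2 below the highest knockout library and knockout libraries 1 and 4 above the lowest wild-type one. The means were 19.8 ± 2.78 and 14.9 ± 2.54 CPM (SD, n = 5 each), and the log2 fold change of -0.40 ± 0.13 SE did not pass (adjusted p = 0.616 by edgeR).

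With wild-type library 1 and knockout library 4 left out, Hagh passed, at a log2 fold change of -0.55 (adjusted p = 0.0371 by edgeR). It did not pass under any of the other 17 alternatives (adjusted p = 0.205 to 0.846). These 2 libraries are also those that stood apart in other tissue markers or heart muscle sums. The annotated Fahd1 gene overlaps Hagh on the opposite strand, and their reads cannot be told apart there.

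Park7 (ENSMUSG00000028964, chromosome 4, 150981579 to 150998903) encodes DJ-1, a redox-sensitive protein for which deglycase and glyoxalase activities have been described. It was at 59.7, 85.7, 89.0, 98.3 and 82.5 CPM in wild-type libraries 1 to 5 and at 96.2, 78.2, 83.3, 69.4 and 78.5 CPM in knockout libraries 1 to 5. The groups overlapped, and the lowest value was that of wild-type library 1. The log2 fold change was -0.03 ± 0.13 SE (adjusted p = 0.969 by edgeR).

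Akr1b3, listed as Akr1b1 in the annotation (ENSMUSG00000001642, chromosome 6, 34279369 to 34294434), encodes aldose reductase, the first enzyme of the polyol pathway, which also reduces methylglyoxal. It was at 74.2, 93.3, 101, 104 and 96.0 CPM in wild-type libraries 1 to 5 and at 89.1, 76.7, 103, 109 and 84.8 CPM in knockout libraries 1 to 5. The groups overlapped, and the log2 fold change was -0.02 ± 0.12 SE, with an adjusted p by edgeR of 0.981. Its 3 processed pseudogenes of over 99% identity had counts equal to 0.183% to 1.45% of its own.

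Akr1a1 (ENSMUSG00000028692, chromosome 4, 116493703 to 116516804) encodes aldehyde reductase, which reduces methylglyoxal and other aldehydes with NADPH. It was at 142, 145, 153, 134 and 124 CPM in wild-type libraries 1 to 5 and at 169.6, 151, 134, 129 and 133 CPM in knockout libraries 1 to 5. These values overlapped as well, and the log2 fold change was 0.04 ± 0.10 SE, with an adjusted p by edgeR of 0.951. The standard errors of Park7, Akr1b3 and Akr1a1, 0.10 to 0.13, were small beside the 1.57 of Glo1, a gene that was itself chosen for being higher.

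Levels of different genes were compared per length of transcript. Per kb of the Ensembl canonical transcript, wild-type hearts held 97.7 ± 7.62 CPM of Akr1a1, 91.5 ± 15.8 of Park7, 66.4 ± 8.33 of Akr1b3 and 8.65 ± 1.22 of Hagh (SD, n = 5). Akr1a1 and Park7 did not differ beyond their spread, and Hagh was the lowest of these 4. The place of Glo1 in this order depended on which transcript was taken, since its canonical transcript is 9877 bases and the median of its coding transcripts is 1047 bases. On the canonical length Glo1 was at 7.87 ± 0.788 CPM in wild-type and 23.4 ± 1.41 in knockout hearts. On the median length it was at 74.3 ± 7.43 and 221 ± 13.3 CPM. On that scale Glo1 in knockout hearts was above the 117 ± 13.9 CPM of Akr1a1, which was next. On the canonical scale it stayed below the 65.5 ± 9.31 CPM of Akr1b3.

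The wider pathway was described with 7 lists of 73 genes, of which 63 that are not members were tested. None was called by edgeR in either direction or under any of the 18 alternatives, DESeq2 included, and 5 (7.94%) had an unadjusted p under 0.05, against 6.86% of all tested genes. Their median log2 fold change was -0.01, as over all 16700 tested genes, where 0.353% were called. The groups did not overlap in 1 of the 63, Aldh1a1, against 1.78% of all tested genes.

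Among the other glyoxalase genes, Glod4, a glyoxalase domain protein, was at 35.5 ± 1.60 and 32.9 ± 4.59 CPM (SD, n = 5 each). Haghl, a relative of Hagh on the same chromosome, was at 4.46 ± 0.809 and 4.50 ± 0.844 CPM, so its level was much the same in both groups. Of 16 tested aldehyde, carbonyl and aldo-keto enzymes, the retinaldehyde dehydrogenase gene Aldh1a1 had a log2 fold change of -1.40 that did not pass (adjusted p = 0.653 by edgeR). Its level was 201 CPM in wild-type library 1, 34.6 to 51.9 CPM in wild-type libraries 2 to 5 and 19.6 to 30.8 CPM in knockout libraries. Aldh9a1, another aldehyde dehydrogenase, was at 44.5 ± 6.99 and 54.9 ± 8.06 CPM.

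Fn3krp, a relative of the fructosamine kinase gene Fn3k in the protein deglycation list, was at 5.22 ± 0.304 against 5.72 ± 0.899 CPM (SD, n = 5 each). Fn3k itself was at 6.76 ± 0.888 against 7.10 ± 1.17 CPM. In the glutathione list, whose product is the cofactor of glyoxalase 1, Idh1, a source of NADPH, was at 59.1 ± 9.61 and 50.1 ± 7.33 CPM. Chac2, a glutathione-degrading enzyme, was at 7.09 ± 1.23 and 6.01 ± 0.691 CPM. None of these 4 passed the test.

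Among genes that set methylglyoxal formation, Gpd1l, a glycerol-3-phosphate dehydrogenase homologue, was at 66.6 ± 8.70 and 73.3 ± 10.5 CPM. The cytochrome Cyp2e1, which can form methylglyoxal from acetone, was at 124 CPM in wild-type library 1 and at 0.211 to 2.49 CPM in the other 9. Of the receptors for advanced glycation end products, Scarb1 was at 14.2 ± 1.79 and 17.3 ± 2.10 CPM. Lgals3, which encodes galectin 3, was at 27.3 CPM in wild-type library 1 and at 1.01 to 5.06 CPM in the other 9.

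Nrf2, encoded by Nfe2l2, is a known regulator of Glo1, and its list held no called gene. Its target Srxn1, sulfiredoxin, ranged from 23.8 to 37.0 CPM in wild-type and from 16.7 to 54.8 CPM in knockout libraries. Its inhibitor Keap1 was at 35.3 ± 3.31 and 37.3 ± 2.96 CPM (SD, n = 5 each). The groups overlapped in both.

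**Figure D4:**
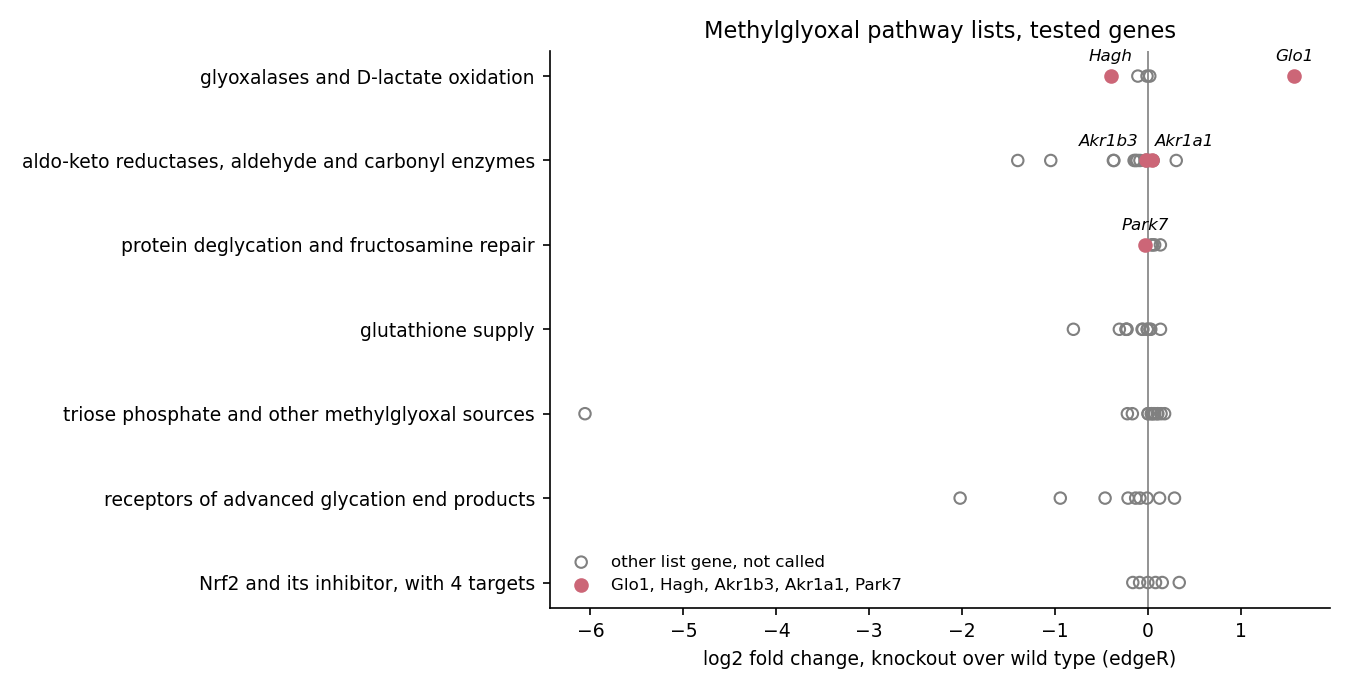
Fitted log2 fold change, knockout over wild type (horizontal axis), of the tested genes of 7 methylglyoxal pathway lists (rows); grey circles are 63 genes that edgeR did not call, and red points are Glo1, Hagh, Akr1b3, Akr1a1 and Park7. Glo1 lies at 1.57, Hagh at -0.40, and the value furthest to the left is Cyp2e1, whose counts came largely from wild-type library 1.

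Likeness to Glo1 was measured as Pearson's r of log2(CPM + 1) over the 10 libraries, among 13818 other genes of mean CPM at least 1. The most alike named genes were Nnt (r = 0.991), Hmga1b (0.988), Wdfy1 (0.971), Ppil1 (0.971) and Mllt10 (0.968), and 3 predicted genes ranked among them. Points of 1 group share their genotype, and these genes, like Glo1, had higher means in knockout hearts. Nnt, the mitochondrial nicotinamide nucleotide transhydrogenase gene, of which C57BL/6J mice are known to carry a deleted allele, was at 49.8 CPM in wild-type and 292 CPM in knockout hearts on average. With each group's mean subtracted, the 5 most alike genes were different ones, Plaat3 (r = 0.985), Parl (0.978), S100a1 (0.977), Micos10 (0.977) and Commd1 (0.975). Parl and Micos10 encode mitochondrial proteins and S100a1 a calcium-binding protein of heart muscle. Without wild-type library 1 and knockout library 4, their r were 0.971, 0.950, 0.974, 0.979 and 0.958. The genes had been picked by their r over all 10 libraries, so these values are not a separate check.

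Among the members themselves, r with Glo1 after group means were subtracted was 0.85 for Hagh, 0.84 for Akr1b3, 0.74 for Park7 and 0.62 for Btbd9. It was near 0 for Glo1-ps (0.081) and Akr1a1 (-0.081), -0.17 for Gm10503 and -0.72 for Dnah8. Over both groups together, libraries with more Glo1 than their group's mean thus tended to hold more Hagh, Akr1b3 and Park7. The share of other genes with r as high was not taken, so these values are a description. The 5 most alike genes stood at 0.975 to 0.985. No r was taken inside a single group. Knockout library 4 had the most Glo1 of its group and the least Park7, 69.4 CPM. Knockout library 1, with nearly as much Glo1, had the most Park7 of that group, 96.2 CPM. On 8 libraries the values were 0.81 for Hagh, 0.63 for Akr1b3, 0.91 for Park7 and 0.50 for Btbd9. They were 0.26 for Glo1-ps, 0.15 for Akr1a1, -0.48 for Dnah8 and 0.49 for Gm10503, so the sign turned for Akr1a1 and Gm10503. Libraries differ in heart muscle content and depth, which all genes of a library have in common. Wild-type library 1 had the lowest Glo1, Hagh, Park7 and Akr1b3 of its group along with the lowest heart muscle marker sum. What these relations owe to that was not tested.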

How the data were processed

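Heart RNA of 10 libraries was measured, and the authors deposited expected counts for each gene. STAR 2.5.2 aligned the reads to GRCm39, per the labels' protocols. The submitters' processing notes list RSEM 1.3.0. All deposited counts were whole numbers, so none was rounded. The annotation release, strand setting, trimming and read length were not stated in any source used here. RSEM divides shared reads by estimation, so near-identical and overlapping genes are uncertain.

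Symbols and positions came from GENCODE M39 (GRCm39), matching 78168 of 78298 identifiers. The whole table was fitted with edgeR 4.0.16 (R 4.3.3), quasi-likelihood F test, TMM factors, minimum count of 10, 16700 genes, Benjamini-Hochberg adjustment at 0.05. CPM used TMM factors on totals of tested genes. SE is the absolute log2 fold change over the square root of F. The fit was tested on simulated data. All 20 pairs of libraries within a group differed by more than sampling noise (chi-square per degree of freedom 9.47 to 179). Alternatives were DESeq2 1.42.0, limma 3.58.1 voom, other scalings and filters, added copies and left-out libraries. BLAST 2.17.0 found copies of members at 95% identity over 200 bases.

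Members and lists were chosen with earlier results of these data known. Named genes were the members, the 2 smallest p of each list, called or flanking genes of the 1 Mb window, and the 5 genes most like Glo1 by each measure. A sequence comparison of Glo1 with its pseudogene is not reported here.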

Additional observations from a re-analysis of the deposited data

Results flagged for a closer look

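Each member was checked in both groups of 5 for a library far from the rest, 18 checks in all, and chance marks about 1 group in 20. Wild-type library 1 stood far above its group for Dnah8, at 0.988 CPM against 0.404 CPM for the next library, with a gap of 0.771 of the group's range where the limit is 0.71. The same library held the 1 count of Gm10503 found in wild-type hearts, 0.022 CPM, while the other 4 had none. Any 1 count among zeros would be marked, so the rate of 1 in 20 does not hold there. Wild-type library 1 is also the library with lung, airway and cilia markers, whose part in these 2 values was not tested.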

How the results depend on the processing

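Over 18 alternatives the log2 fold change of Glo1 ranged from 1.48 to 1.62, that of Glo1-ps (17 alternatives) from 3.34 to 3.56 and that of Btbd9 from 0.86 to 0.99. Dnah8 gave 3.09 without wild-type library 1 and knockout library 4, and 2.41 to 3.10 when 1 library was left out. The log2 ratio of depth-scaled Gm10503 counts was 11.09, and 10.73 to 11.16 with 1 library left out; without wild-type library 1 it has no value, since the remaining wild-type libraries hold no count. The number of genes called over the whole table was 59, and 118 with DESeq2. Of the enzymes Hagh, Park7, Akr1b3 and Akr1a1, 1 was called without wild-type library 1 and knockout library 4, which was Hagh at -0.55 (adjusted p = 0.0371 by edgeR), and 0 otherwise. Genes called within 1 Mb of Glo1 numbered 5 to 7. Wild-type library 1 and knockout library 4 were singled out by their levels in these same data, which bears on the Hagh call as well. Leaving them out was planned for the fits, and was added for the correlations with Glo1 after seeing the data. Genes with few counts, such as Dnah8 and Gm50242, are limited by depth. No paired analysis was possible because the knockout titles carry no replicate numbers, and numbers given in accession order pair nothing.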

Other observations

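Relatives of the proteins encoded around Glo1 were described as well. Of 8 other tested ciliary dynein heavy chain genes, none was called by edgeR, and 4 had an unadjusted p under 0.05 (6.86% of all tested genes did). In all 4, wild-type library 1 was far above the rest. Dnah6 was at 18.8 CPM in wild-type library 1, 0.433 to 2.33 CPM in the other wild-type libraries and 0.389 to 1.02 CPM in knockout libraries. Dnah3 was at 13.2 CPM in wild-type library 1 and at 0.13 to 1.18 CPM in the other 9. Dnah10 was at 8.37 CPM in wild-type library 1 and at 0.162 to 0.994 CPM in the other 9, and Dnah12 at 9.18 CPM and at 0.282 to 1.06 CPM. Both were named after their values were seen. Among 9 tested Btbd genes and Cul3, none was called, and 1 had an unadjusted p under 0.05, Btbd3, at 27.0 ± 1.85 and 23.1 ± 2.16 CPM (SD, n = 5 each). Btbd2 was at 15.2 ± 1.25 and 16.6 ± 1.09 CPM.

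Of 7 tested genes of other glyoxalase-fold or metallo-beta-lactamase-fold enzymes, none was called by edgeR and 1 had an unadjusted p under 0.05. That gene, Mblac2, a relative of Hagh by fold, was at 9.31 to 11.8 CPM in wild-type and 6.51 to 9.28 CPM in knockout libraries, with a log2 fold change of -0.40 (adjusted p = 0.572). Pnkd was at 24.6 ± 4.78 and 29.1 ± 2.33 CPM.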
